A study of Mus musculus with 30 samples.

Results

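Gene by gene, the ribosome-associated RNA of D2 medium spiny neurons was compared between mice that were Susceptible to a witnessed social stress and Control mice. The comparison took the 5 D2 Susceptible and 5 D2 Control libraries by their titles, 10 of the 30 libraries of the series, and all 19368 expressed genes of the 55335 in the count tables. Every D2 mouse was a female that carried A2A-Cre-RT, in which Cre is driven by the adenosine A2a receptor promoter and switches on an HA-tagged ribosomal protein (RiboTag, RT). For Control mice the labels give the treatment as Control and no more, and their age and strain are not given here. Susceptible mice had undergone CWDS, chronic witness defeat stress, where a mouse looks on while another is attacked, and a test of social interaction then placed them in this group. Punches of the nucleus accumbens were frozen 24 h after that test, polyribosomes were pulled down with an antibody against HA, and 10 ng of RNA went into each SMART-Seq v4 library. Each library pooled 4 mice of similar scores, so a replicate is a pool and the spread between single animals was not measured. The 10 D1 libraries used in the last comparison came from Susceptible and Control females that carried D1-Cre-RT, in which Cre marks D1 neurons. Their Susceptible mice had undergone CWDS too. Values of a few genes and gene lists are also given for the 5 D2 Resilient libraries, from A2A-Cre-RT females that had undergone CWDS and were labelled Resilient. All 6 groups of the series, D1 Resilient among them, shared the main model.

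Medium spiny neurons are the output neurons of the nucleus accumbens and fall into a D1 class and a D2 class by the dopamine receptor they carry. The D2 class also carries the adenosine A2a receptor and makes enkephalin, and it is studied for its part in aversion and stress responses. A RiboTag pulldown enriches RNA on tagged ribosomes, and some RNA of neighbouring cells is carried along. In such bulk samples fewer cells of a type and less RNA per cell cannot be told apart.

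The labelled class was seen in all 10 libraries. Levels are given as counts per 1000000 of the TMM-scaled library size (CPM), and differences as log2 changes of Susceptible against Control. Penk, which encodes proenkephalin, was at 9412 to 10603 CPM in the Susceptible and 6085 to 10477 CPM in the Control libraries. Drd2, the D2 receptor, was at 464 to 569.8 and 294 to 572 CPM, and Adora2a, the A2a receptor, at 1292 to 1457 and 751 to 1398 CPM. For each of these 3 genes the lowest of the 10 values was that of Control replicate 5. Rpl22, whose product carries the tag, was at 61.0 to 107 CPM in Susceptible and 60.3 to 80.9 CPM in Control. Drd1, the D1 receptor gene, was also counted in every library, at 50.3 to 74.4 CPM in Susceptible and 54.7 to 247 CPM in Control.

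Susceptible replicates 1 and 2 stood apart from the other 8 libraries. Genes with at least 1 count numbered 15822 and 16525 in these libraries, 20635 to 21135 in Susceptible replicates 3 to 5 and 20116 to 21243 in Control, at gene totals of 48699934 to 65882152 counts. This count and the skin and muscle RNA are the values that singled out the 2 libraries, so both are given as a description. The 2 libraries had higher sums of skin and muscle genes. The 25 epidermis genes summed to 599 and 895 CPM there, to 176 to 193 CPM in the other Susceptible and to 153 to 206 CPM in the Control libraries. The 25 skeletal muscle genes summed to 112 and 199 CPM, against 50.5 to 60.3 and 57.7 to 67.4 CPM. Of the epidermis genes, 1 and 0 had no count in replicates 1 and 2, and 9 to 11 had none in each of the other 8 libraries. Krt1, a keratin of the outer epidermis, was at 129.9 and 189 CPM in these libraries and at 0.474 to 2.79 CPM in the other 8. Dsp, the desmosome protein desmoplakin, was at 32.1 and 36.5 CPM, with 0 to 0.331 CPM elsewhere. Ttn, the giant sarcomere protein titin, was at 20.2 and 28.2 CPM, against 0.0182 to 0.413 CPM. Not all abundant members of these lists were high in the pair: the junction protein plakoglobin, Jup, was at 50.3 and 64.0 CPM there and at 62.2 to 87.5 CPM in Control, and the muscle glycolytic enzyme Pgam2 at 19.7 and 33.5 against 29.0 to 37.5 CPM. Log2 changes are therefore given with all 10 libraries and without these 2.

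**Figure D1:**
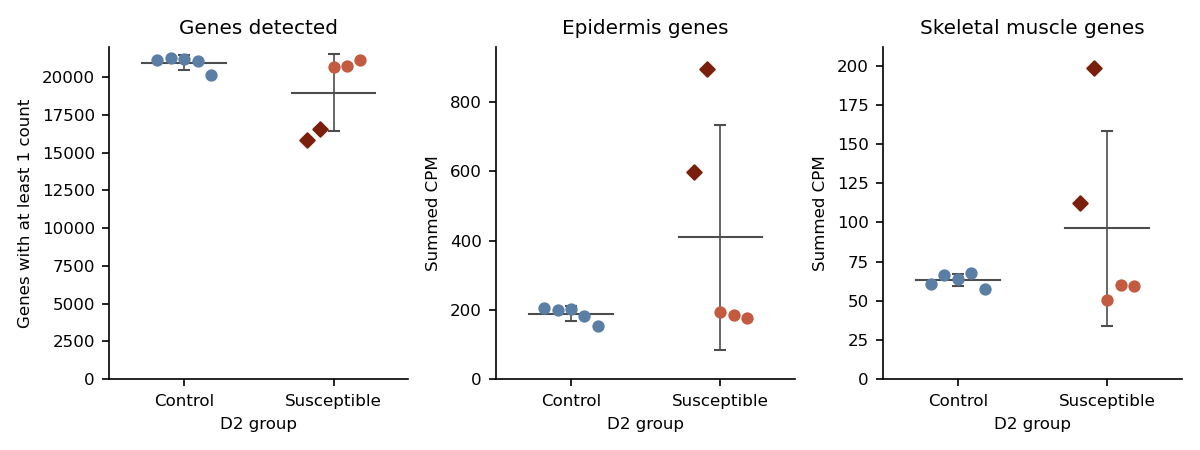
Genes with at least 1 count (left), summed CPM of epidermis genes (middle) and summed CPM of skeletal muscle genes (right) in each D2 library; dark diamonds are Susceptible replicates 1 and 2, circles the other libraries, horizontal lines means and bars SDs of 5 libraries. Susceptible replicates 1 and 2 detected 15822 and 16525 genes and had the highest sums, 599 and 895 CPM for epidermis and 112 and 199 CPM for muscle.

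With all 10 libraries, 1 of 19368 genes passed an adjusted p of 0.05 in edgeR's quasi-likelihood test (0.00516%). It was Mustn1, lower in Susceptible. DESeq2's Wald test called 255 genes on the same counts and voom with quality weights 0, and edgeR's count went from 0 to 828 with 1 library left out, the 828 without Susceptible replicate 3. At an unadjusted p under 0.05 there were 3038 genes (15.7%), with 1682 higher (8.68%) and 1356 lower (7.0%). Without Susceptible replicates 1 and 2, edgeR called 0 of 20427 genes, and 1144 had an unadjusted p under 0.05 (5.6%), of which 362 were higher (1.77%) and 782 were lower (3.83%). More of these genes were higher with the 2 libraries, and more were lower without them. Of the genes in both fits, 493 had an unadjusted p under 0.05 with the same sign in each, 130 higher and 363 lower. These were 16.2% of the 3038 genes and 48.6% of the 1014 genes of the second list that were tested in both fits, and 495 of the 3038 genes changed sign when the 2 libraries were left out. The fits share 8 libraries, so their overlap is a description.

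Many genes had no count in the 2 libraries. Of all 19368 genes, 4313 had no count in Susceptible replicate 1 and 3788 none in replicate 2, and 1095 had none in either while all other 8 libraries counted them (5.65%). Of the 1356 lower genes 69 were of that kind (5.09%), near the share over all genes, and of the 1682 higher genes 0. The higher genes were longer than the lower ones. Their median exonic length was 5277.5 bases with all libraries and 4365 bases without replicates 1 and 2, against 3644 bases over all genes tested, while the lower genes had medians of 3315 and 2871 bases. A length was available for 19350 of the 19368 genes, and its part in these lists was not tested.

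**Figure D2:**
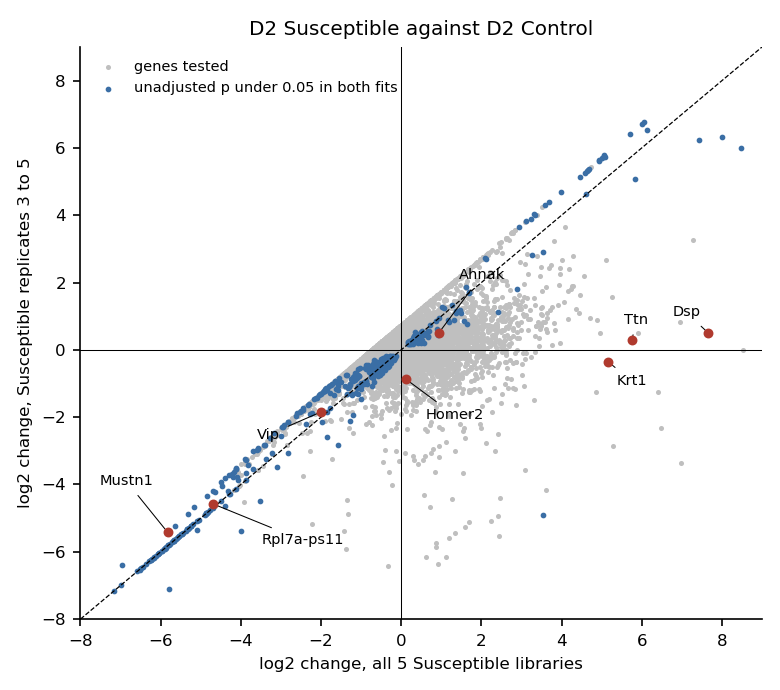
Log2 change of each gene in D2 Susceptible against D2 Control with all 5 Susceptible libraries (horizontal axis) and with replicates 3 to 5 only (vertical axis); blue points have an unadjusted edgeR p under 0.05 in both fits, and the dashed line marks equal values. Mustn1 lies near the line at -5.83 and -5.42, while Krt1, Dsp and Ttn lie far right of it with values near 0 on the vertical axis.

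Mustn1 encodes a small nuclear protein that is known from muscle and bone. It lies on chromosome 14 from 30879200 to 30881610 on the plus strand of GRCm38 (ENSMUSG00000042485), and no other gene of the annotation overlaps it. The Susceptible libraries held 0, 0, 1, 0 and 0 counts of it in replicates 1 to 5, and the Control libraries held 13, 15, 16, 19 and 34. The groups did not overlap, and every Control library lay above the floor of 3 counts that a count of 0 allows, which is 0.0455 to 0.0616 CPM in these 10 libraries. The log2 change was -5.83 (SE 0.956, edgeR adjusted p 0.0184), a fitted value that rests on a single Susceptible count. Scaled to library size, the ratio of the summed counts was 0.0103 with a 95% exact interval of 0.000258 to 0.0588, which covers counting error only. Without Susceptible replicates 1 and 2 the ratio was 0.0158 (0.000397 to 0.0903) and the log2 change -5.42, where Mustn1 was no longer called (edgeR adjusted p 0.188). It was also lost without Susceptible replicate 1 (adjusted p 0.088), replicate 2 (0.0915) or Control replicate 5 (0.0569) in edgeR. The log2 changes in those fits were -5.67, -5.64 and -5.63. Of the adjacent genes on the same strand, Tmem110 was at 521 to 1175 counts in Susceptible and 735 to 1207 in Control, with a log2 change of -0.0033 (edgeR adjusted p 0.992). Itih4 had 0 counts in Susceptible and 2 in Control over all libraries, too few to compare. In D2 Resilient, the other group of stressed mice, the 5 libraries held 20, 7, 13, 28 and 1 counts of Mustn1.

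Among genes of at least 10 CPM on average, none passed the adjusted threshold. The 8 lower genes with the smallest p come first. Resp18, a protein of the secretory pathway of neuroendocrine cells, was at 4.47, 7.01, 8.14, 12.4 and 11.1 CPM in Susceptible replicates 1 to 5 and at 13.9, 14.6, 15.1, 18.7 and 27.8 CPM in Control. Every Susceptible library lay below every Control library. The log2 change was -1.06 (SE 0.216, edgeR adjusted p 0.118), and -0.78 without replicates 1 and 2 (edgeR adjusted p 0.509). Tuba1a, an alpha-tubulin of growing neurons, was at 331, 307, 403, 431 and 399 CPM against 488, 507, 491, 486 and 516 CPM. Here too the groups did not overlap, with replicates 1 and 2 lowest, and the log2 change was -0.41 and without them -0.28. Nptxr, the neuronal pentraxin receptor, which helps to gather AMPA receptors at synapses, was at 85.7 and 95.4 CPM in replicates 1 and 2, at 141 to 165 CPM in replicates 3 to 5 and at 185 to 231 CPM in Control (log2 change -0.63, without the pair -0.37).

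Dner, a transmembrane protein of neurons with EGF repeats, was at 53.3, 45.2, 50.5, 50.3 and 52.8 CPM in Susceptible and at 67.9, 66.4, 81.9, 61.8 and 113 CPM in Control. The Susceptible values were close together and all below Control, and the log2 change hardly depended on replicates 1 and 2, at -0.63 with them and -0.62 without (edgeR adjusted p 0.118 and 0.564). Control replicate 5 was highest for Dner, for Ube2ql1, a ubiquitin-conjugating enzyme, and for Rab3b, a GTPase of secretory vesicles. Ube2ql1 was at 31.9 to 48.9 CPM in Susceptible against 50.7 to 98.4 CPM, and Rab3b at 43.0 to 60.5 against 59.3 to 99.99 CPM. With Susceptible replicates 1 and 2 and Control replicate 5 all left out, their log2 changes were -0.45 for Dner, -0.37 for Ube2ql1 and -0.30 for Rab3b, from -0.63, -0.65 and -0.56. Acot7, an acyl-CoA thioesterase of neurons, was at 147 to 214 against 242 to 283 CPM (log2 change -0.43, without the pair -0.28). The eighth gene, the ribosomal protein pseudogene Rpl7a-ps11, rests on a single library: it was at 113 CPM in Control replicate 1 and at 0.365 to 1.48 CPM in the other 9. As a near copy of other sequences, its count is uncertain.

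The genes with the smallest p among the higher ones were mostly highest in Susceptible replicates 1 and 2. Ahnak, a very large scaffold protein, was at 51.5, 42.1, 24.8, 27.4 and 22.8 CPM in Susceptible and at 16.0, 18.3, 15.4, 21.1 and 17.5 CPM in Control. All 5 Susceptible libraries lay above Control, and the log2 change was 0.93 (SE 0.183, edgeR adjusted p 0.104) and 0.50 without replicates 1 and 2 (edgeR adjusted p 0.583). Ctnna1, the cadherin partner alpha-catenin, was at 82.7, 86.1, 70.5, 74.5 and 72.8 CPM against 58.1, 66.1, 61.8, 57.5 and 57.2 CPM. The groups did not overlap with or without the pair, and the log2 change was 0.36 and 0.26 (edgeR adjusted p 0.118 and 0.624). Tsga10, a gene first described in testis, was at 20.6, 17.9, 15.1, 20.6 and 17.5 CPM against 14.1, 11.5, 14.5, 11.7 and 11.5 CPM. The groups did not overlap, replicate 4 was as high as replicate 1, and the change was nearly the same in both fits, at 0.53 and 0.48 (edgeR adjusted p 0.118 and 0.507).

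The splicing cofactor Arglu1 was at 279 CPM in both replicates 1 and 2, at 155 to 197 CPM in replicates 3 to 5 and at 135 to 166 CPM in Control (log2 change 0.56, without the pair 0.22). Bbx, a transcription factor with an HMG box, was at 52.0 to 74.0 against 43.5 to 48.0 CPM, with changes of 0.43 and 0.21. Paxbp1 was at 25.0 to 34.96 against 20.3 to 24.7 CPM (0.43 and 0.27). Arhgef15, an exchange factor for small GTPases at synapses, was at 42.2 to 56.2 against 34.4 to 39.7 CPM (0.36 and 0.25). Krt1 was the remaining gene of the 8, and its log2 change of 5.16 with all libraries was -0.35 without the pair.

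Leaving out Susceptible replicates 1 and 2 brought forward other genes, none past the adjusted threshold. Homer2, a scaffold protein of the postsynaptic density, was at 31.0, 31.4, 8.39, 11.3 and 7.93 CPM in Susceptible and at 13.8, 14.97, 12.6, 18.8 and 23.1 CPM in Control. Replicates 1 and 2 lay above every Control library and replicates 3 to 5 below every one, so the log2 change was 0.11 with all libraries (edgeR adjusted p 0.872) and -0.86 without the pair (SE 0.172, edgeR adjusted p 0.188). Tox2, a transcription factor with an HMG box, was at 22.7, 15.7, 7.14, 6.20 and 6.93 CPM against 8.33 to 16.6 CPM (log2 change -0.07 and -0.87). The zinc transporter Slc39a6 was at 63.9 and 48.8 CPM in the pair, at 31.1 to 35.2 CPM in replicates 3 to 5 and at 39.1 to 54.2 CPM in Control (-0.10 and -0.46). For these 3 genes the 2 libraries and the other 3 lay on different sides of the Control mean.

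Fosl2, a member of the AP-1 family of activity-linked transcription factors, was at 50.1, 44.0, 33.6, 35.5 and 34.6 CPM in Susceptible and at 56.1, 55.4, 54.7, 51.4 and 45.4 CPM in Control. It was below the Control mean in all 5 Susceptible libraries, and replicates 3 to 5 lay below every Control library (log2 change -0.41 with all, -0.61 without the pair, edgeR adjusted p 0.175 and 0.254). Samd14 was at 25.8 to 26.1 CPM in replicates 3 to 5 and at 29.9 to 44.4 CPM in Control, with changes of -0.30 and -0.49. On the higher side without the pair, Mxd1, a MAX partner that opposes MYC, was at 46.2 to 52.4 CPM in replicates 3 to 5 against 33.5 to 40.4 CPM (0.28 and 0.35). Ano2, a calcium-activated chloride channel, was at 31.3 to 39.8 against 19.9 to 28.9 CPM (0.34 and 0.54). Igsf11, a synaptic adhesion protein, was at 49.6 to 62.8 against 38.6 to 48.7 CPM (0.42 and 0.35), and the zinc finger protein Zfp384 at 19.5 to 22.1 against 15.8 to 18.3 CPM (0.16 and 0.32). In all of these the 3 libraries lay beyond the 5 Control libraries, as they did for 718 of the 19368 genes (3.71%), 326 above (1.68%) and 392 below (2.02%), so such a gap alone sets no gene apart. With all 5 Susceptible libraries the groups did not overlap for 253 genes (1.31%), 83 above Control (0.429%) and 170 below (0.878%).

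**Figure D3:**
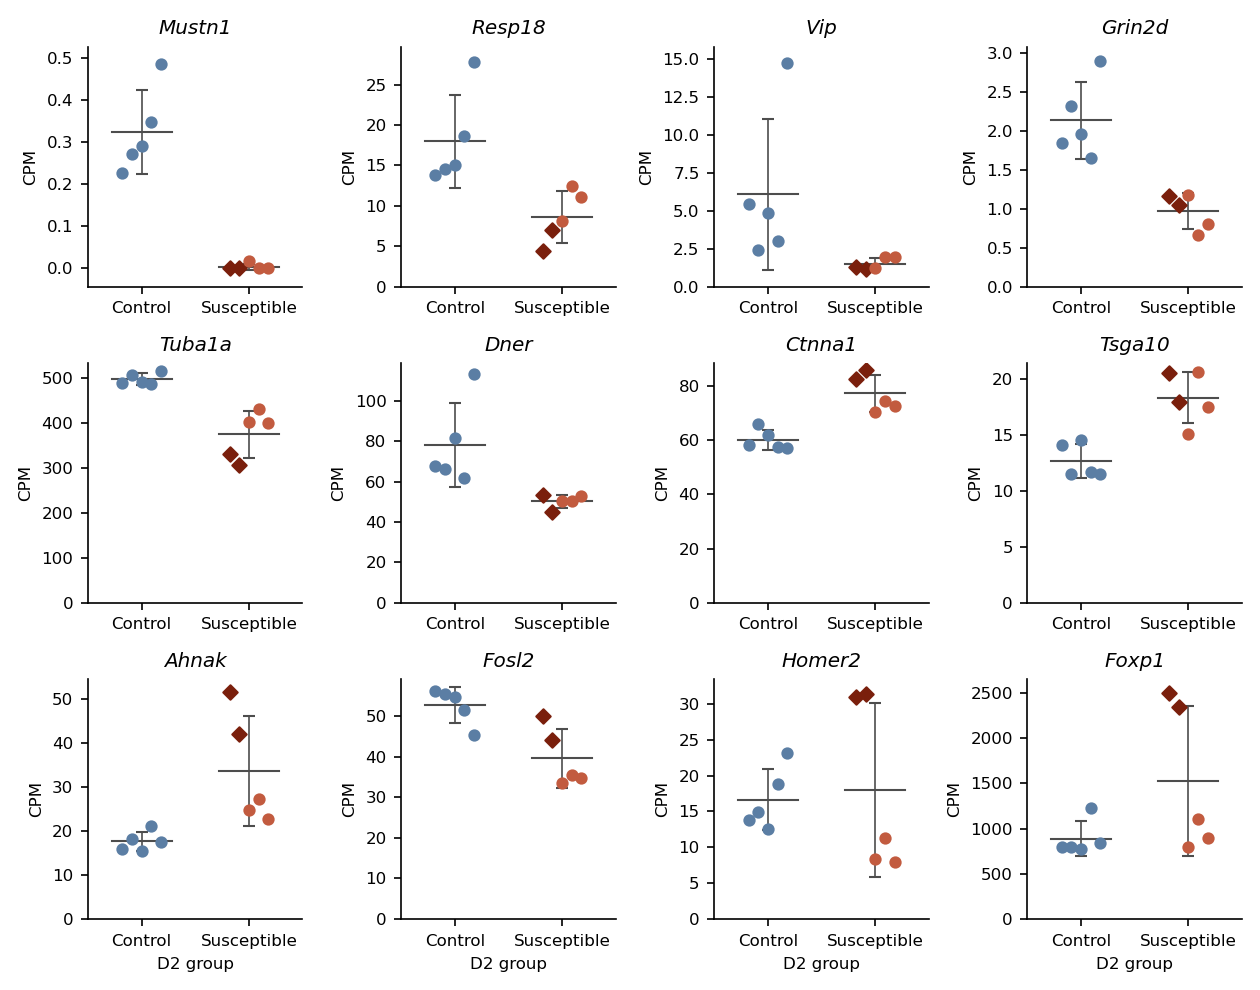
CPM of 12 genes in the 5 D2 Control and 5 D2 Susceptible libraries, on linear axes from 0; dark diamonds are Susceptible replicates 1 and 2, circles the other libraries, horizontal lines means and bars SDs. For Mustn1, Resp18, Vip, Grin2d, Tuba1a and Dner all 5 Susceptible points lie below Control, for Ctnna1, Tsga10 and Ahnak all lie above, and for Homer2 and Foxp1 the 2 diamonds lie far above the circles.

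None of the markers of other neuron classes of the tissue passed the adjusted threshold. Counts of list members are therefore given at an unadjusted p under 0.05, to be read against all genes tested, of which 8.68% were higher and 7.0% lower with all libraries, and 1.63% and 3.6% of the same genes without the pair. Over all genes the median log2 change was -0.03 with all libraries and -0.01 without the pair, and 54.2% and 52.4% of the changes were negative. Of 9 D1 markers, 8 had a negative log2 change with a median of -0.94, and 4 were lower at that p (44.4%) and 0 higher. Without replicates 1 and 2 the median was -0.97 and again 4 were lower. Pdyn, which encodes the opioid peptide precursor prodynorphin, was at 32.1, 30.9, 35.1, 32.5 and 37.1 CPM in Susceptible and at 43.7, 41.1, 155, 56.2 and 275 CPM in Control. All Susceptible libraries lay in a narrow range below Control, while Control replicates 3 and 5 stood far above the other 3 (log2 change -1.77, edgeR adjusted p 0.180, and -1.72 without the pair). Drd1 was at 50.3 to 74.4 CPM against 54.7, 68.7, 147, 71.6 and 247 CPM (-1.01, edgeR adjusted p 0.265, and -1.18 without the pair). Isl1, a transcription factor of the D1 class, was at 0.601 to 5.94 against 3.12 to 20.3 CPM (-1.69, edgeR adjusted p 0.216, and -1.17 without the pair). Tac1, which encodes substance P, went the other way in the pair, at 423 and 373 CPM, with 149.9 to 237 CPM in replicates 3 to 5 and 193 to 557 CPM in Control (-0.20, and -0.75 without the pair).

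Of 13 interneuron genes, 12 had a negative change with a median of -0.88, and 6 were lower at an unadjusted p under 0.05 (46.2%) and 0 higher. Without replicates 1 and 2 the median was -0.75 and 7 were lower. Vip, a peptide of a small class of interneurons, was at 1.31, 1.18, 1.23, 1.94 and 1.96 CPM in Susceptible and at 5.47, 2.44, 4.87, 2.98 and 14.7 CPM in Control. No Susceptible library reached the lowest Control library, and the log2 change was -1.997 (SE 0.359), just short of the threshold (edgeR adjusted p 0.0526), and without replicates 1 and 2 it was -1.84 (edgeR adjusted p 0.507). Npy, the peptide of the somatostatin class of interneurons, was at 10.2 to 17.0 against 14.8 to 42.6 CPM (-0.75, edgeR adjusted p 0.164, and -0.81 without the pair). Cort, cortistatin, was at 0 to 1.23 against 0.54 to 3.40 CPM (-2.11, edgeR adjusted p 0.159, and -1.42 without the pair). Slc17a7, a glutamate transporter of cortical pyramidal cells, was at 106 to 275 against 268 to 407 CPM (-0.62, edgeR adjusted p 0.195, and -0.43 without the pair). The median of the 11 pyramidal genes was -0.24 with all libraries and -0.38 without the pair, with 1 lower in the first fit and 1 higher in the second.

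These differences were smaller without Control replicate 5. Its D1 markers summed to 1307 CPM and its interneuron genes to 319 CPM, against 360.0 to 760.1 and 121 to 169.7 CPM in the other 4 Control libraries, and its D2 markers to 7426 CPM against 10041 to 12683 CPM. In the 5 Susceptible libraries the same sums were 300.4 to 668, 78.6 to 118 and 12046 to 12940.5 CPM. With Control replicate 5 left out the median change was -0.47 for D1 markers and -0.45 for interneuron genes. In that fit 1 and 2 of these genes had an unadjusted p under 0.05, as did 2855 of all 19794 genes tested. Without Control replicate 5 and the Susceptible pair the medians were -0.45 and -0.48. There 0 and 4 genes of the lists had such a p, as did 948 of all 20319 genes tested. The D2 markers had a median change of 0.17 over the 8 tested of 10, of 0.24 without the pair and of 0.04 without Control replicate 5. Sp9, a transcription factor that D2 neurons need, was at 66.8 to 100.4 CPM in Susceptible and 42.3 to 69.9 CPM in Control (0.45, edgeR adjusted p 0.307, and 0.32 without the pair). How far the class makeup of the pools moves with single genes was not tested.

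**Figure D4:**
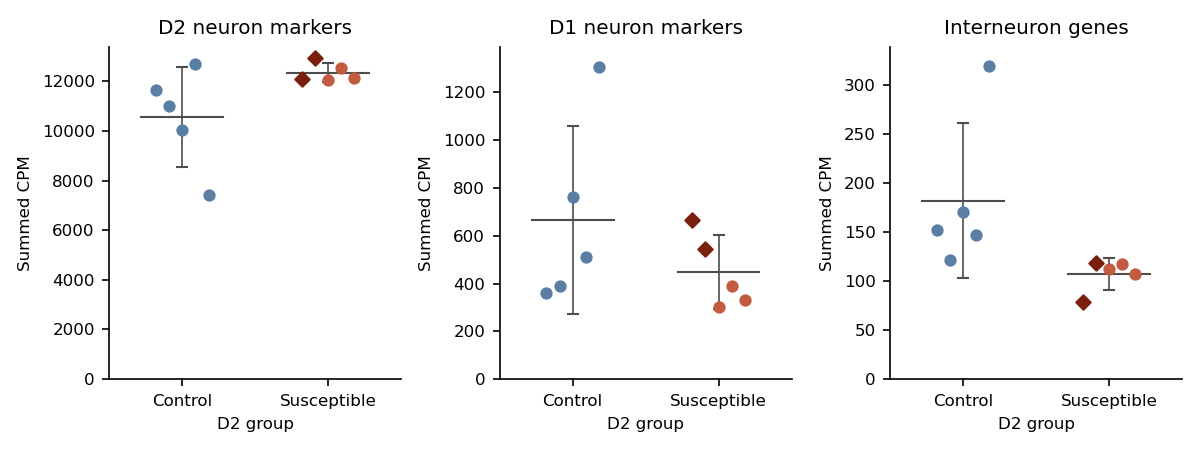
Summed CPM of D2 neuron markers (left), D1 neuron markers (middle) and interneuron genes (right) in each D2 library; dark diamonds are Susceptible replicates 1 and 2, circles the other libraries, horizontal lines means and bars SDs of 5 libraries. A single Control library, replicate 5, is lowest for D2 markers at 7426 CPM and highest for D1 markers at 1307 CPM and interneuron genes at 319 CPM.

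Of 22 genes for neuropeptides, granins and the enzymes that process them, 20 had a negative log2 change with a median of -0.25. At an unadjusted p under 0.05, 9 were lower (40.9%, against 7.0% of all genes) and 0 higher. Without replicates 1 and 2 the median was -0.26 and 8 were lower (36.4%, against 3.6%), and with Control replicate 5 also left out it was -0.24 with 5 lower. Since 6 of the 22 also stand in the neuron class and interneuron lists, the other 16 were counted alone: 15 were negative with a median of -0.19 and 5 were lower at that p, and without the pair the median was -0.21 with 4 lower. None of the 22 passed the adjusted threshold. Chga, chromogranin A of dense-core vesicles, was at 247, 238, 265, 313 and 248 CPM in Susceptible and at 308, 306, 309, 384 and 365 CPM in Control. All Susceptible libraries but replicate 4 lay below Control (log2 change -0.35, SE 0.0998, edgeR adjusted p 0.158; -0.29 without the pair).

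Several genes for neuropeptides and granins are textbook targets of CREB, a factor that binds the cAMP response element (CRE, TGACGTCA, the same on both strands). The motif lay within 250 bases before the RefSeq start (GRCm38.p6) of 5 of the 17 genes of the list with an entry, Cartpt, Chgb, Pcsk1, Scg2 and Sst (29.4%), and of 478 of all 27025 genes with an entry (1.77%). Known CREB targets are in the list, so its share is no finding of these data. The motif also lay before 2 of 11 interneuron genes (18.2%, Sst among them) and 2 of 16 immediate early genes (12.5%). The match is a description of these letters and says nothing of binding in these cells. Whether the motif has a part in the changes was not tested. The last 120 bases before the start are printed for the called gene, Mustn1, which has no match in its 250 bases, and for 3 of the 5 genes whose values follow, with the CRE in capitals. GENCODE starts these genes further upstream than RefSeq does. The intervals are chr14:30879137-30879256 (plus strand) for Mustn1, chr16:23890845-23890964 (minus) for Sst, chr1:79440027-79440146 (minus) for Scg2 and chr13:99900684-99900803 (minus) for Cartpt.
Mustn1: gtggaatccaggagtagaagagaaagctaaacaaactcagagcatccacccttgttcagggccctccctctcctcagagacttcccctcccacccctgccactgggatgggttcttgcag
Sst: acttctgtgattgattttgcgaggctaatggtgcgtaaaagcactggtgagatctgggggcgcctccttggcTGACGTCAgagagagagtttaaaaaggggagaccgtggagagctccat
Scg2: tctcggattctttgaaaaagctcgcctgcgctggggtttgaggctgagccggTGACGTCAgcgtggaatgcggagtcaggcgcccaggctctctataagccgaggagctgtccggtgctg
Cartpt: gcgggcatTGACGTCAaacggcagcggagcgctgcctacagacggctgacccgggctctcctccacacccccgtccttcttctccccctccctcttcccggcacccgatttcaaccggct

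The CRE ends 41 bases before the start in Sst, 61 in Scg2 and 105 in Cartpt. Sst, somatostatin, was at 46.0, 57.1, 51.2, 49.9 and 47.2 CPM in Susceptible and at 55.9, 49.8, 88.4, 80.2 and 188 CPM in Control (log2 change -0.88, edgeR adjusted p 0.175, and -0.91 without the pair). Its groups overlapped, and Control replicate 5 stood well above the rest. Scg2, secretogranin II, was at 549.8, 579.6, 676, 758 and 809 CPM against 770.1, 834, 932, 691 and 910.4 CPM (-0.29, edgeR adjusted p 0.216, and -0.15 without the pair). Cartpt, the precursor of the CART peptides, was at 115 and 122 CPM in replicates 1 and 2 and at 67.5, 83.6 and 72.2 CPM in replicates 3 to 5, with 91.8 to 111 CPM in Control. Its pair lay above Control and its other 3 libraries below (log2 change -0.18 with all and -0.50 without the pair, edgeR adjusted p 0.576 and 0.583). Chgb, chromogranin B, was at 393 to 473 against 429.9 to 513 CPM (-0.11 with all and -0.03 without the pair), and Pcsk1, a prohormone convertase, at 10.4 to 14.2 against 8.97 to 16.8 CPM (-0.19 and -0.23). Those 2 genes overlapped widely between the groups. These 5 genes were named for their promoters, after their values were seen.

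Immediate early genes are switched on in neurons within minutes of activity. Of 19 tested, 14 had a negative log2 change with a median of -0.33, and at an unadjusted p under 0.05 there were 7 lower (36.8%, against 7.0% of all genes) and 2 higher (10.5%, against 8.68%). Without replicates 1 and 2 the median was -0.28, and the counts were 2 lower, Nr4a3 and Fosl2, and 0 higher. Nr4a3, an orphan nuclear receptor, was at 11.9, 19.4, 20.5, 14.6 and 15.4 CPM in Susceptible and at 26.1, 29.1, 22.6, 19.2 and 28.6 CPM in Control. Only Control replicate 4 lay among the Susceptible values, and the change was alike in both fits, at -0.62 and -0.59 (edgeR adjusted p 0.159 and 0.724). Ier2 was at 1.25 to 3.31 against 1.84 to 6.34 CPM (-0.86, and -0.54 without the pair). Homer1, whose short form is made after activity, went with the pair: it was at 652 and 421 CPM there, at 219.6 to 262 CPM in replicates 3 to 5 and at 233 to 281 CPM in Control (0.51, and -0.067 without the pair). Genes of the glucocorticoid response had a median of 0.09 over 15 tested, and at an unadjusted p under 0.05 there were 2 higher (13.3%, against 8.68% of all genes) and 1 lower (6.67%, against 7.0%). Without the pair the median was 0.08, with 0 higher and 1 lower. Klf9, one of the 2 higher, was at 1208 and 1135 CPM in the pair, against 617 to 758 CPM in replicates 3 to 5 and 542 to 745 CPM in Control (0.51, and 0.13 without the pair).

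Of 22 synaptic vesicle and SNARE genes tested, 18 were negative with a median of -0.16. At an unadjusted p under 0.05 there were 10 lower (45.5%, against 7.0% of all genes) and also 3 higher (13.6%, against 8.68%). Without replicates 1 and 2 the median was -0.08, with 3 lower (13.6%, against 3.6%) and 0 higher. Syp, the vesicle protein synaptophysin, was at 1647 to 1952 CPM in Susceptible and 1969 to 2509 CPM in Control, 2 ranges that did not meet (log2 change -0.25, edgeR adjusted p 0.197, and -0.19 without the pair). Among 15 AMPA, NMDA and kainate receptor genes the median was -0.08, with 3 lower and 1 higher (7.0% and 8.68% of all genes). Without the pair the median was 0.06, with 1 lower and 0 higher. Grin2d, an NMDA receptor subunit that is known from interneurons, was at 1.16, 1.05, 1.18, 0.658 and 0.809 CPM against 1.85, 2.32, 1.96, 1.64 and 2.896 CPM. Its groups were fully apart, on 43 to 67 counts a library in Susceptible and 90 to 202 in Control, and its change was -1.14 with all libraries and -1.29 without the pair (edgeR adjusted p 0.119 and 0.400).

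Of 12 GABA-A receptor genes, 3 were higher at an unadjusted p under 0.05 with all libraries (25.0%, against 8.68% of all genes) and 0 without the pair. Gabra4 was at 252 and 256 CPM in the pair, at 199 to 219.9 CPM in replicates 3 to 5 and at 181 to 192 CPM in Control, so that all Susceptible libraries lay above (0.28, edgeR adjusted p 0.221, and 0.15 without the pair). Gabra2 was at 1373 and 1020 CPM in the pair and at 338 to 483 CPM in replicates 3 to 5, with 358 to 566 CPM in Control (0.79, and -0.060 without the pair). Replicate 3 was the lowest of the 10 libraries, and replicates 4 and 5 lay within the Control range. Of 25 potassium channel genes, 7 were higher and 1 lower with all libraries (8.68% and 7.0% of all genes), and 0 higher and 1 lower without the pair. Kcnj2, an inward rectifier of medium spiny neurons, was at 66.3 to 88.7 against 53.0 to 70.7 CPM (0.31, edgeR adjusted p 0.159, and 0.18 without the pair). Of 18 postsynaptic scaffold genes, 2 were higher with all libraries (11.1%) and 0 lower, and without the pair 0 were higher and 2 lower, Homer2 and, named after its values were seen, Shank1 (-0.25 with all and -0.38 without the pair). Nrgn, the calmodulin-binding protein neurogranin, was at 1709, 1845, 1413, 1582 and 1268 CPM in Susceptible and at 1174, 1117, 1005, 1475 and 1171 CPM in Control (0.40, edgeR adjusted p 0.163, and 0.25 without the pair).

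Of 36 chromatin remodellers and histone modifiers, 12 were higher (33.3%, against 8.68% of all genes) and 1 was lower by that unadjusted p, with a median of 0.18, and without replicates 1 and 2 it was 0 higher and 1 lower with a median of 0.03. Kdm5a, a histone demethylase, was at 279.9 and 287 CPM in the pair and at 82.7 to 133 CPM in replicates 3 to 5, against 81.9 to 143 CPM in Control (0.80, and 0.03 without the pair). Arid1b, a subunit of the BAF remodelling complex, was at 218 and 177 CPM, then 77.3 to 101 CPM, against 76.8 to 93.8 CPM (0.64 and 0.07). Foxp1, a transcription factor of medium spiny neurons, was at 2506 and 2348 CPM, then 797 to 1104 CPM, against 778 to 1230 CPM (0.78 and 0.06). For all 3 the pair lay above Control and the other Susceptible libraries overlapped it.

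Of 74 nuclear genes of the respiratory chain and ATP synthase, 44 had a negative change with a median of -0.07, and 68 without the pair with a median of -0.13. These were 59.5% and 91.9% of the list, against 54.2% and 52.4% of all genes. At an unadjusted p under 0.05, 13 were lower (17.6%, against 7.0% of all genes) and 2 higher, and without the pair 8 lower (10.8%, against 3.6%) and 0 higher. Of 13 mitochondrially encoded genes, 12 were negative with a median of -0.26, and without the pair 4 were negative with a median of 0.08. None of the 13 reached that p in either fit. Uqcrfs1, the iron-sulfur subunit of complex III, was at 142, 153, 149, 167 and 150 CPM against 176, 162, 178, 187 and 173 CPM (-0.20, edgeR adjusted p 0.175, and -0.18 without the pair), with replicate 4 alone above the lowest Control library. Of 77 cytosolic ribosomal protein genes, 8 were higher (10.4%, against 8.68% of all genes) and 6 lower (7.79%, against 7.0%), shares close to those of all genes, and 0 and 2 without the pair. Their median was 0.05 with 32 negative (41.6%) with all libraries, and -0.11 with 73 negative (94.8%) without the pair. In D2 Resilient against Control the median was -0.18 for the respiratory chain list, -0.16 for the ribosomal list and -0.007 over all genes. Rpl10 was at 77.1 to 113 against 109 to 124 CPM (-0.26, edgeR adjusted p 0.175, and -0.24 without the pair). Genes of this family have many near copies, so their counts are uncertain.

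Markers of the non-neuronal cells of the tissue were counted at an unadjusted p under 0.05. Of 19 oligodendrocyte genes 2 were higher (10.5%) and of 21 endothelial genes 1 (4.76%), against 8.68% of all genes. In both lists 0 were lower (7.0% of all genes). Of 15 astrocyte, 14 microglia and 17 mural cell genes, 0 passed that p in either direction. Without the pair 1 endothelial gene was higher (4.76%, against 1.63% of all genes) and 0 genes of the other 4 lists passed it. The median changes of the 5 lists lay between -0.18 and 0.15 with all libraries and between -0.07 and 0.17 without the pair. Of 17 epidermis genes that passed the filter (8 did not), 11 were higher, and of 19 muscle genes (6 did not) 11 were higher and 3 lower. Several passed the filter through the pair alone, so these counts describe the pair. Their medians of 1.79 and 1.51 were 0.00 and -0.11 without it.

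**Figure D5:**
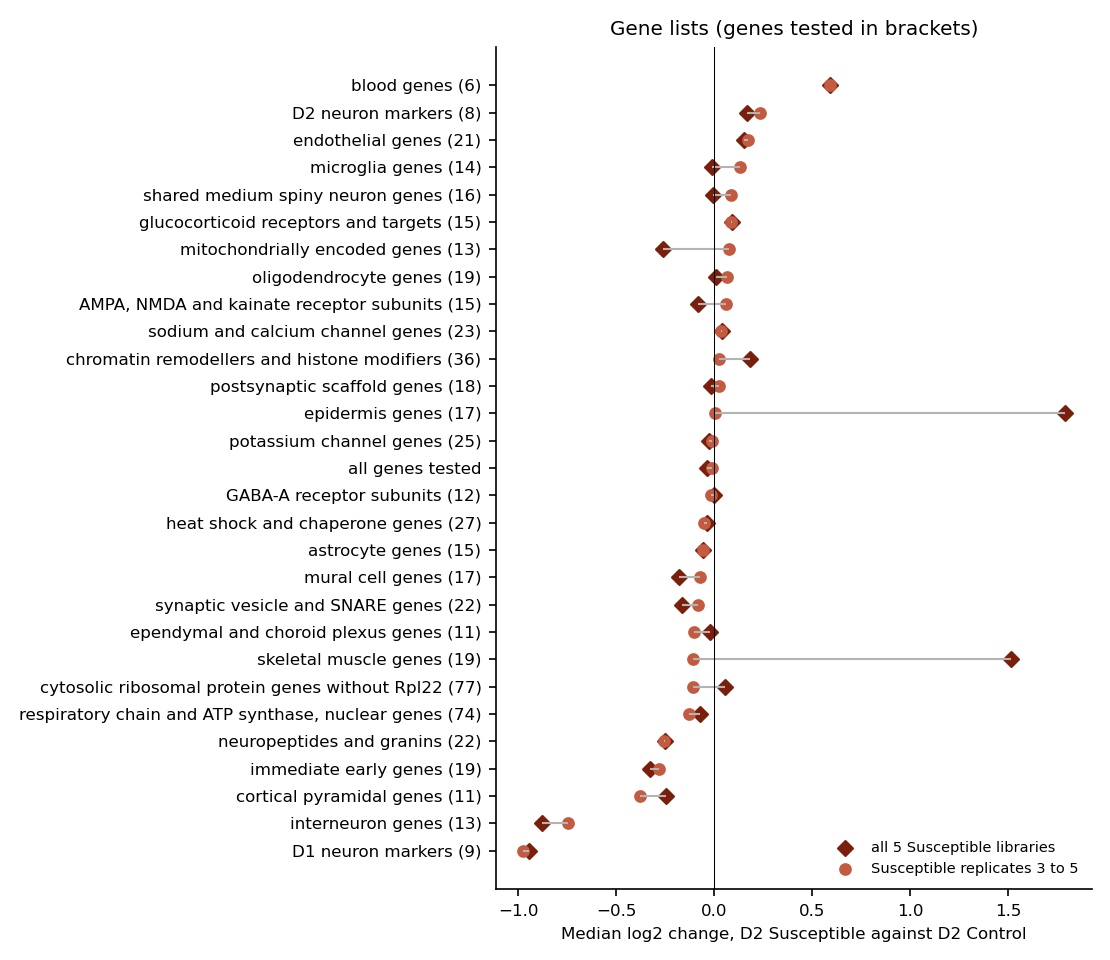
Median log2 change of D2 Susceptible against D2 Control over the tested genes of each list (number in brackets), with all 5 Susceptible libraries (dark diamonds) and with replicates 3 to 5 only (circles). D1 markers and interneuron genes lie lowest in both, at -0.94 and -0.88 with all libraries, and epidermis and muscle genes move from 1.79 and 1.51 to 0.00 and -0.11.

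Whether the D2 change differed from the D1 change was tested as an interaction in the same model, with 5 D1 Susceptible and 5 D1 Control libraries. EdgeR called 0 of 19368 genes (1509 at an unadjusted p under 0.05, 7.79%), voom 0 and DESeq2 5. The 5 of DESeq2 were Btc, Gm14308, Gm4631, Krt1 and Mustn1. D1 Susceptible replicate 1 was a poorer library, with 28996168 gene counts and 41.2% of its reads outside genes. The other D1 libraries used had at most 9.03% there. With that library left out edgeR called 0 of 19853 genes, and the D1 changes below include it. Without Susceptible replicates 1 and 2 of the D2 libraries edgeR called 0 of 20427 genes (743 at an unadjusted p under 0.05). For Mustn1 the D2 minus D1 difference was -5.37 (SE 1.15, edgeR adjusted p 0.568, and -4.98 without the pair), and its D1 means were 0.349 ± 0.255 CPM in Susceptible and 0.494 ± 0.317 CPM in Control (SD, n = 5). The D1 change was -0.29 for Resp18, -0.44 for Vip, 0.05 for Grin2d, -0.29 for Dner and -0.03 for Tsga10, against D2 changes of -1.06, -1.997, -1.14, -0.63 and 0.53. The D2 minus D1 differences were -0.76, -1.56, -1.19, -0.35 and 0.56 with all libraries and -0.49, -1.41, -1.34, -0.34 and 0.50 without the pair. None of them passed (edgeR adjusted p 0.637 to 0.669 with all libraries and 1 without the pair). Median D1 changes were -0.28 for immediate early genes, -0.15 for neuropeptides and granins, -0.27 for interneuron genes and -0.03 for D1 markers. The D2 medians were -0.33, -0.25, -0.88 and -0.94 with all libraries, and -0.28, -0.26, -0.75 and -0.97 without the pair. Immediate early genes thus had similar medians in D1 and D2. In D2 Resilient the means were 17.3 ± 5.62 CPM for Resp18, 4.22 ± 1.89 CPM for Vip, 1.26 ± 0.425 CPM for Grin2d and 80.3 ± 20.9 CPM for Dner. Resp18 and Dner were thus near the Control means of 18.0 and 78.3 CPM. Vip lay between 1.52 CPM in Susceptible and 6.09 CPM in Control, and Grin2d between 0.971 CPM in Susceptible and 2.13 CPM in Control.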

How the data were processed

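The authors deposited raw read counts per gene, without normalization per the file headers, for 30 libraries and 55335 genes. HISAT2, HTSeq, GRCm38 and mm10 are named in the submitters' processing notes. Versions, annotation release and strandedness are not given in the sources used, so where 2 genes overlap in antisense their counts are uncertain. The 5 summary lines (10.3% to 15.7% of the reads of the 10 libraries compared) stayed out of library sizes and tests. Symbols and gene coordinates came from GENCODE M21 on GRCm38, with a match for 55154 genes.

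The filter was filterByExpr (minimum count 10, minimum total 15). Counts were scaled by TMM and tested in edgeR 4.0.16 by the robust quasi-likelihood F test, in 1 model of 6 groups over 30 libraries, with Benjamini-Hochberg adjustment over 19368 genes. The biological coefficient of variation was 41.4%. The test was tried on simulated data. Alternatives used DESeq2 1.42.0, limma 3.58.1 and sva 3.50.0. Replicates are pools, and nothing says that they come from separate cohorts, so p-values measure the spread between libraries. In the main fit that spread is shared over all 6 groups and is not that of the 10 compared libraries alone. With only these 2 groups in the fit, the edgeR adjusted p of Mustn1 was 0.821. No 2 replicates were copies: chi-square per degree of freedom was 24.6 to 479 over the pairs of each group. Named genes were the called gene, the 8 higher and 8 lower of smallest p at a mean of at least 10 CPM, 5 and 5 in the fit without Susceptible replicates 1 and 2, up to 3 of each list, the top epidermis and muscle genes, and genes that check the labels. The 5 promoter genes are outside this rule. The libraries, lists and rule were chosen with earlier results of these data known. Of the lists, 4 Y chromosome genes were all below the filter, and Gpr52 was not analysed here. At an unadjusted p under 0.05, 5 of 23 sodium and calcium channel genes were higher (21.7%) and 3 lower (13.0%), with a median of 0.04. Of 27 chaperone genes 1 was higher (3.7%) and 2 lower (7.41%), with a median of -0.04. Of 11 ependymal and choroid plexus genes 1 was higher and 1 lower (9.09% each), with a median of -0.02. Of 6 blood genes 1 was higher (16.7%) and 0 lower, with a median of 0.59. Over all genes 8.68% were higher and 7.0% lower. Without Susceptible replicates 1 and 2, 0 genes of these lists were higher and 1, of the channel list, was lower.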

Additional observations from a re-analysis of the deposited data

Results flagged for a closer look

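In a group of 5 libraries a value was picked out when its gap to the nearest other exceeded 0.71 of the group's range, which chance gives in about 1 of 20 groups. Of 146 groups of values looked at, 19 met this. Control replicate 5 was the library in 8 of them. It detected 20116 genes, against 21041 to 21243 in the other Control libraries, and its interneuron genes summed to 319 CPM, against 121 to 169.7 CPM. It was highest in Control for Vip at 14.7 CPM, Npy at 42.6 CPM, Sst at 188 CPM, Isl1 at 20.3 CPM, Ube2ql1 at 98.4 CPM and Rab3b at 99.99 CPM.

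Control replicate 4 was highest in Control for Arglu1 at 166 CPM, Foxp1 at 1230 CPM, Gabra2 at 566 CPM and Syp at 2509 CPM. Control replicate 1 stood out for Rpl7a-ps11 at 113 CPM and for Dsp at 0.331 CPM, and Control replicate 2 for Tnnt3, a troponin of fast muscle, at 0.199 CPM. Susceptible replicate 2 was highest for Myh1, a fast muscle myosin, at 11.9 CPM, for Sp9 at 100.4 CPM and for Rpl22 at 107 CPM. Susceptible replicate 3 held the single Mustn1 count, 0.0175 CPM.

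Outside the tested genes, reads of the 4 Y chromosome genes looked at were found although the labels give all mice as female. Ddx3y had 267 counts in Susceptible replicate 1 and 56 in replicate 2, and at most 13 in a Control library. Uty had 144 counts in Susceptible replicate 1 and 0 in every Control library. Eif2s3y had 11 counts in Control replicate 1, 2 in Control replicate 3 and 0 in every Susceptible library, and Kdm5d had 1 count each in Susceptible replicates 2 and 5 and 0 in Control. The share of reads outside genes was 11.1% in Susceptible replicate 1 and 10.4% in replicate 2, and at most 7.79% in Control. Where these reads come from was not tested.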

How the results depend on the processing

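The count of 1 called gene for Susceptible against Control was 255 with DESeq2's Wald test (156 higher, 99 lower) and 4 with the replicate block, all lower: Mustn1, Oxtr, Resp18 and Vip. It was 0 with voom quality weights, with low counts unfiltered, with a fit of only these 2 groups or only the D2 libraries, with 1 surrogate variable, with the Susceptible pair left out, or with the pair and Control replicate 5 left out, the last added after the data were seen. With 1 library left out it ranged from 0 to 828: 828 without Susceptible replicate 3, 170 without replicate 5, 11 without replicate 4, 0 without replicate 1 or 2 or Control replicate 5, and 2 without Control replicate 2 or 4. The cause was not tested. The count at an unadjusted p under 0.05 was 861 in the fit of these 2 groups and 5181 without the filter. The labels do not say whether the numbers pair the libraries. Same-numbered deviations correlated at -0.079 to 0.062, and 1 of 5 Susceptible libraries matched its own number best. Susceptible replicates 1 and 2, which stood apart, both matched Control replicate 4 best, so these correlations cannot decide whether numbers mark a shared batch. The block moved the count from 1 to 4, and that of the D2 minus D1 difference stayed at 0, which was 5 with DESeq2 and 0 otherwise. The difference in genes detected was -1987.4 with all 10 libraries, and -2530.2 to -1202 with 1 library left out. With the Susceptible pair left out it was -127.33. The pair was singled out by this count, so the difference with the pair in it is a description.

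Of 67 named genes, 58 kept their sign in every fit run. The reversals, in log2, were as follows. With the pair left out they were Krt1 -0.35, Homer2 -0.86, Gabra2 -0.060, Homer1 -0.067 and Rpl22 -0.047. With Control replicate 5 left out too they were Krt1 -0.34, Homer2 -0.71, Gabra2 -0.062, Homer1 -0.026, Rpl22 -0.041 and Krt10 -0.015. With 1 surrogate variable they were Krt1 -0.12, Homer2 -0.79, Gabra2 -0.066, Homer1 -0.072 and Rpl22 -0.022, and with voom Krt1 -0.68, Homer2 -0.72 and Tnnt3 -0.46. With 1 library left out, Homer2 ranged from -0.19 to 0.30, Tox2 from -0.46 to 0.091, Tac1 from -0.43 to 0.11 and Rpl22 from -0.042 to 0.21.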
